A study of Mus musculus with 2 samples.

Results

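Strong distal peaks are the H2AZ peaks of high score that lie away from the ends of protein-coding genes in neural progenitor cells of the mouse embryonic brain. A peak belonged to the set if its midpoint lay more than 5 kb from either end of every protein-coding gene and its score was 15 or more, whether it lay inside a gene or between genes. Of 21546 peaks, 41.5% were distal in this sense and 947 met both conditions, so the members were chosen by position and by the authors' score. The study made 1 chromatin immunoprecipitation (ChIP) sequencing library with an H2AZ antibody and 1 input library from C57BL/6 embryos at embryonic day 13. Both libraries are labelled as neural progenitor cells of the brain, with no treatment or altered gene named. The labels do not say whether cells of several embryos were pooled. The data were 1 list of peaks, so the labelled cell type could not be checked against marker expression, and no value has a replicate check. The number of reads is unknown. Intervals are exact 95% binomial (Clopper-Pearson) intervals and cover counting error only. Peaks are not replicates, so shares are set side by side without a test.

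H2AZ is a variant of the core histone H2A that is placed into nucleosomes by the SRCAP and p400 (TIP60) remodelling complexes and removed with the help of INO80 and the chaperone ANP32E. It is known for well-positioned nucleosomes on both sides of active and poised transcription start sites, above all at CpG islands, and it is also found at enhancers. Many genes are transcribed from more than 1 promoter, and a promoter that lies inside the span of its gene is far from both gene ends. Non-coding genes have promoters of the same kind.

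Starts listed by RefSeq for GRCm38.p6 served to look for such promoters. The list holds 32851 starts of 27025 protein-coding and long non-coding RNA (lncRNA) genes, with strand. The following sequences show what lay at the start of some of the highest-scoring members and of Dnmt3a, and at other starts of the same genes. Each is the 250 bases before a listed start, printed in the direction of transcription, from RefSeq on GRCm38.p6. Capitals mark CG dinucleotides (CpG), the sites of DNA methylation that are dense in CpG islands.
Sgo2a, start inside the peak, chr1:57995724-57995973, plus strand: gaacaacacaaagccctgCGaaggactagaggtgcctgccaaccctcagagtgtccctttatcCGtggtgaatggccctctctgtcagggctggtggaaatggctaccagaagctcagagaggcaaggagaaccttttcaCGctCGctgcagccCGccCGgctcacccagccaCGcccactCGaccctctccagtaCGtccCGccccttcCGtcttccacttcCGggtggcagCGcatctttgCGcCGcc
Sgo2a, upstream start, chr1:57985090-57985339, plus strand: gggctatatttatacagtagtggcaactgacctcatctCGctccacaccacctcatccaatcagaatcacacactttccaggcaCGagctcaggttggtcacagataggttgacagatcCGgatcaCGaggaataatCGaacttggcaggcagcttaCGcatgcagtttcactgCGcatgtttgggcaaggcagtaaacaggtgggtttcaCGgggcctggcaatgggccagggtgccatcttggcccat
Mbnl1, start inside the peak, chr3:60500929-60501178, plus strand: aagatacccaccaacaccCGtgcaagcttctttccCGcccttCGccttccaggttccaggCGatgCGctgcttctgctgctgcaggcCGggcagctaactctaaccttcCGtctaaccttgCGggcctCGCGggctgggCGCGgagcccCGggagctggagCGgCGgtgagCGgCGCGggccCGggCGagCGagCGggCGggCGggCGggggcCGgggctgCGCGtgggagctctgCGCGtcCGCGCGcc
Mbnl1, upstream start, chr3:60472580-60472829, plus strand: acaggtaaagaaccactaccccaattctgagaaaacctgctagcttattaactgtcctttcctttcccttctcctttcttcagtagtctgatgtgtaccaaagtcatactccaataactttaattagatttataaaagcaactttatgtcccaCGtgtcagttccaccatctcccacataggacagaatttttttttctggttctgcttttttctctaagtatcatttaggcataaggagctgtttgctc
Zbtb38, start inside the peak, chr9:96719851-96720100, minus strand: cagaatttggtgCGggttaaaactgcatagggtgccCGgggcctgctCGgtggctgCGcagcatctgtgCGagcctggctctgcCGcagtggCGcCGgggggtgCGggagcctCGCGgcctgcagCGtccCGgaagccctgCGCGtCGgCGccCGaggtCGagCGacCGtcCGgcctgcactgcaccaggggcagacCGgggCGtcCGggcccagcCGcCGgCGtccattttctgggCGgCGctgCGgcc
Dnmt3a, start inside the peak, chr12:3806730-3806979, plus strand: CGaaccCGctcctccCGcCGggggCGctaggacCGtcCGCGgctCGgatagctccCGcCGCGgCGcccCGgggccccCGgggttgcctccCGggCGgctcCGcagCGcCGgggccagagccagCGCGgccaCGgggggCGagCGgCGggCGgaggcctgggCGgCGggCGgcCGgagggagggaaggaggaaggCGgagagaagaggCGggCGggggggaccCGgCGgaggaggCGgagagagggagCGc
Dnmt3a, downstream start, chr12:3891494-3891743, plus strand: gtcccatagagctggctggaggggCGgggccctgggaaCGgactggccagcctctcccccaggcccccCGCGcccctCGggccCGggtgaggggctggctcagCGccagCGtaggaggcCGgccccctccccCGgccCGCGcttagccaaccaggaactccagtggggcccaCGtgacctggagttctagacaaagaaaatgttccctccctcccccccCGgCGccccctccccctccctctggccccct
Gm41301, start inside the peak, chr15:37135742-37135991, minus strand: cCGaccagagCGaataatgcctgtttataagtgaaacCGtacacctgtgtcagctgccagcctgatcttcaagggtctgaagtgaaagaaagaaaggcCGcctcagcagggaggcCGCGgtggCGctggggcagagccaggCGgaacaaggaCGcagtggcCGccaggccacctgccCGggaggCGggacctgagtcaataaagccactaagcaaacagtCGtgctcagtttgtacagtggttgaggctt
Gm33628, start inside the peak, chr12:108758192-108758441, minus strand: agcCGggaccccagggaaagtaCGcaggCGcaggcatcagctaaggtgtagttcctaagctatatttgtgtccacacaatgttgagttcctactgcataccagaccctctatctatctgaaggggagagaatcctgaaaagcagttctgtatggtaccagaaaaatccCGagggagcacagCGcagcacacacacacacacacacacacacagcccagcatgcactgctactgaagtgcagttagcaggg

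The sequences differ in their CpG content. Mbnl1 encodes a splicing regulator of the muscleblind family. The 250 bases before its start inside the peak held 33 CpGs, and those before its upstream start, where no peak lay, held 1. For Sgo2a, whose product shugoshin protects cohesin at centromeres, the counts were 15 and 8. For Zbtb38, which encodes a zinc finger protein that binds methylated DNA, the stretch held 31. The DNA methyltransferase gene Dnmt3a had 38 CpGs before the printed start inside its peak and 15 before a downstream start that no peak covered. Another Dnmt3a start inside the same peak, not printed, had 40. At the lncRNA genes Gm41301 and Gm33628 the counts were 13 and 5, the lowest of the 6 starts shown that lie inside a member.

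The scores of the members ranged from 15.01 to 37.88, with a median of 18.55 (quartiles 16.7 and 21.51). A score of 15 or more was reached by 36.9% of all peaks, by 55.6% of the peaks that were not distal and by 10.6% of the 8949 distal peaks. Among the distal peaks just under the score limit were those of 14.97 near Pou3f3 and Slc47a1 and one of 14.91 inside Dnmt1 that held a Dnmt1 start. Among those just over it were peaks of 15.01 inside Msrb3 and Kctd7. At the distance limit, a peak of score 26.5 in Edem1 lay 4999 bp from a gene end and was left out. The peak in Zfp800 with a score of 16.73 lay 5002 bp away and was kept. Position and score chose the members and are given as a description.

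By position, 563 members (59.5%, 56.2 to 62.6%) were inside a protein-coding gene and 384 were between genes. Starts on chromosome 18 were not assessed here, which leaves 908 of the 947 members for all counts of starts. Distal peaks of score under 15, of which there were 8002, lay inside genes in 33.2% of cases (32.1 to 34.2%), and all peaks in 57.3%. Members inside genes had a median score of 19.09 and those between genes one of 17.9. The median distance to the nearest protein-coding gene end was 18424 bp (quartiles 9629 and 44065.5 bp). Chromosome X held 4 of the members, or 3.54% of its 113 distal peaks (0.973 to 8.82%), against 10.7% on autosomes (10.0 to 11.3%). These were a peak of 18.49 at an internal start of the ubiquitin ligase gene Rnf128, one of 16.41 at the lncRNA gene Gm5126, and peaks of 16.11 and 15.94 beside the pseudogenes B630019K06Rik and Zfp36l1-ps. On chromosome 7 the share of distal peaks that were strong was 16.4% (13.2 to 20.1%), and on chromosome 3 it was 4.55% (2.91 to 6.76%).

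Starts inside the host gene were the most common annotation found at the members. Of 537 assessed members inside genes, 308 (57.4%, 53.0 to 61.6%) held a listed start of the gene around them, and these peaks marked 302 genes. Over all interior peaks, which include those at gene ends, the share was 57.4%, so the members did not stand above that background at this score limit (with a limit of 12 the share was 50.8% and with 20 it was 64.2%). Among distal peaks of score under 15 it was 16.0% (14.6 to 17.5%). The host gene had at least 1 listed start for 455 of the 537, and among these the share was 67.7% (63.2 to 72.0%), against 19.8% (18.1 to 21.6%) for the weaker peaks and 70.6% (69.6 to 71.5%) over all interior peaks. A wider peak can hold a start more easily. By the midpoint alone, 40.2% of the assessed members (37.0 to 43.5%) lay within 500 bp of a listed start of any gene, beside 42.9% of all peaks (42.3 to 43.6%), 9.48% of the weaker distal peaks (8.83 to 10.2%) and 77.1% of boundary peaks of score 15 or more (76.0 to 78.2%). The members were thus near the share over all peaks. Boundary peaks are those whose midpoint lies within 1 kb of a protein-coding gene end.

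The midpoints sat close to the starts. Among the 308 members at a host start, the midpoint lay a median of 85.5 bp downstream of the start (quartiles -49.5 and 218.5 bp), and 220 lay within 250 bp. The midpoint was downstream of the start in 208 of them (67.5%). Boundary peaks of score 15 or more with a start within 1 kb had a median of 45 bp downstream (quartiles -74 and 182 bp) and lay downstream in 59.9% of 4995 cases. For these the nearest start of any gene was used, on either strand, and for members a start of the host gene, so the values are not measured alike. Some members were far off centre. The peak at Zfp217 was centred upstream of the start (-1232 bp) and spanned 4851 bp, and that at Cpeb3, which encodes an RNA-binding protein of translational control, was centred 1200 bp after it.

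**Figure D1:**
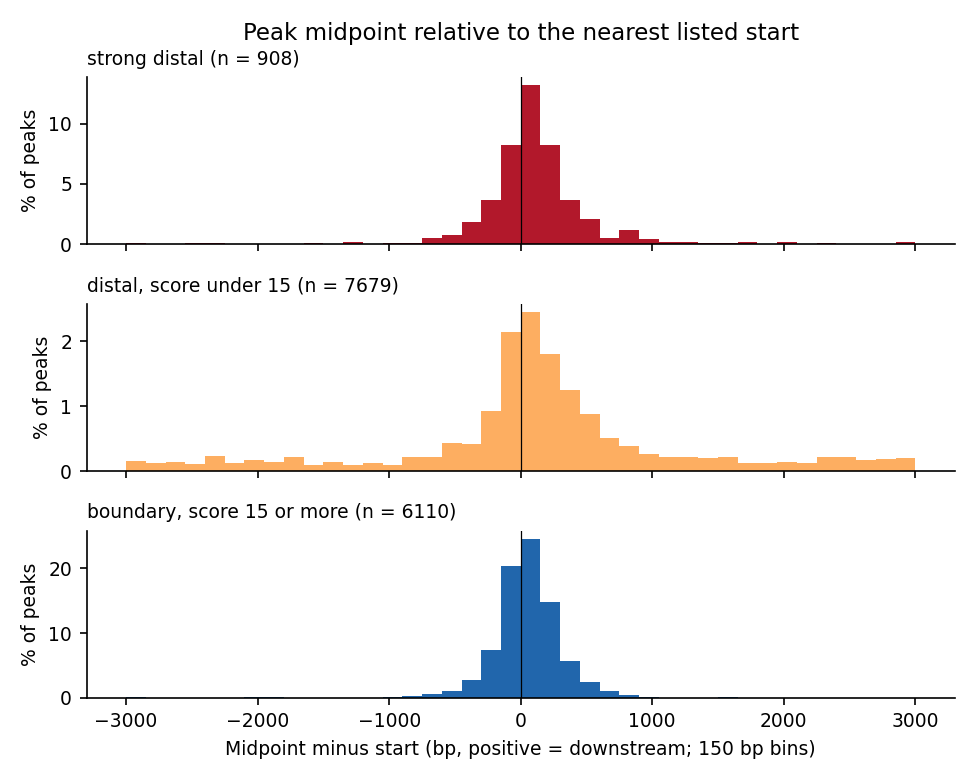
Histograms of the distance from each peak midpoint to the nearest listed start of any gene, in 150 bp bins with downstream positive, as a percentage of the peaks in each group. Of the strong distal peaks, 40.2% lie within 500 bp of a start, against 77.1% of boundary peaks and 9.48% of distal peaks of score under 15. The share over all peaks, which are not drawn, is 42.9%. Larger distances are outside the plot, and the vertical axes differ.

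The share at a start rose with the score on both sides of the limit. Among interior distal peaks it was 7.29% (4.93 to 10.3%) for scores under 6, 13.5% (10.9 to 16.4%) from 8 to 10 and 38.8% (33.1 to 44.6%) from 12 to 15. It was 51.3% (44.1 to 58.4%) from 15 to 18, 61.2% (51.1 to 70.6%) from 21 to 24 and 79.4% (62.1 to 91.3%) in the 34 assessed peaks of 27 and over. The interior share was higher in each band than in the one under it. Between genes, the share holding a listed lncRNA start went from 5.01% (3.65 to 6.69%) under 6 to 16.2% (11.3 to 22.2%) from 15 to 18 and 50.0% (28.2 to 71.8%) in the 22 peaks from 24 to 27, and was lower than that in the 10 peaks of 27 and over (interval 12.2 to 73.8%).

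**Figure D2:**
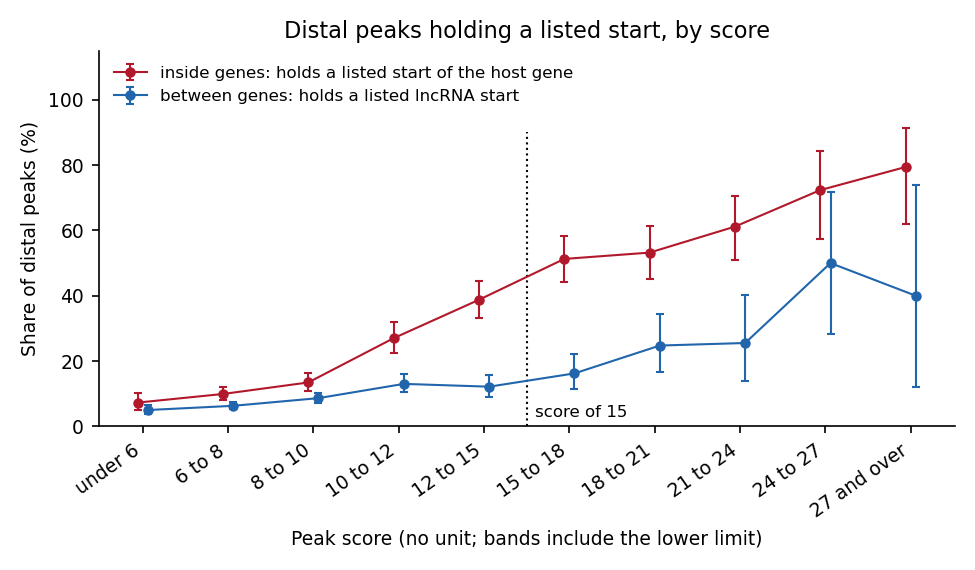
Share of distal peaks that hold a listed start, by score band, for peaks inside protein-coding genes (start of the host gene, red) and between them (lncRNA start, blue); bars are exact 95% binomial intervals. The interior share climbs from 7.29% under 6 to 79.4% at 27 and over, and the dotted line marks the score of 15 that defines the strong distal peaks.

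The highest-scoring members were mostly of this kind. The peak in Sgo2a (37.88; chromosome 1, 57995038 to 57997251) was centred 170 bp downstream of a start that lay 10634 bp inside the gene. Adamts20, which encodes a secreted metalloprotease, and Zbtb38 followed with 33.41 each, at starts 27724 and 11825 bp from the 5' end of the gene. The exocyst gene Exoc6 had 33.11 at a start 13655 bp inside, and Unc13b, which encodes a protein that primes synaptic vesicles, had 30.72 at 12760 bp. Peaks of 30.13 lay at internal starts of Rapgef5, Homez, Mbnl1 and Zscan18, from 7570 bp (Homez) to 30995 bp (Zscan18) from the 5' end. Dnajc25 had 29.74, the diacylglycerol kinase gene Dgkz and the DNA repair gene Abraxas1 had 29.53 each, and the phosphodiesterase gene Pde8b had 28.93. These are 13 of the 20 highest-scoring members. Peaks in the kinesin gene Kif27 (31.62) and in Acaca, which encodes acetyl-CoA carboxylase (28.64), held no listed start of the gene. Starts were not assessed for Oxr1 (30.36) and, on chromosome 18, Rnf14 (30.43) and Jcad (28.85). The other 2 lay between genes at lncRNA starts.

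Internal starts lay in the upstream part of the gene more often than in the downstream part. The median distance from the outermost 5' end was 19448.5 bp (quartiles 9617.5 and 52363 bp), or 33.5% of the gene's length, and 228 of the 308 lay in the upstream 50% of the gene. In 146 members the peak held the most upstream listed start, so the gene's span in the annotation reached further out than any listed start. In 119 of these the host had only 1 listed start, which is the most upstream by definition. Dnmt3a, which has 3 listed starts, was an example of the 146, with a peak of 26.25 (chromosome 12, 3805733 to 3808923). The peak held more than 1 of these starts, and the one nearest its midpoint lay 5601 bp inside the span. In the other 162, another listed start lay further upstream. The deepest starts lay in long genes. The axon guidance receptor genes Robo2 (score 18.49) and Robo1 (21.1) had a member at a start 1035618 and 635631 bp from the 5' end. Anks1b (18.2) had one at 956739 bp and Dab1, which encodes the adaptor of reelin signalling, had one (22.07) at 748038 bp. Dlg2, which encodes a postsynaptic scaffold, had one (16.11) at 614598 bp. Robo2, Robo1 and Anks1b were chosen after their values were seen.

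Many host genes had no other peak of their own at an end. Among all 563 interior members, 273 (48.5%, 44.3 to 52.7%) lay in a gene with no peak within 1 kb of either end, against 33.5% (31.7 to 35.3%) of weaker interior distal peaks. The share over all interior peaks, most of which are not distal, was 13.3%. Among the 308 members at a host start, the 5' end had a peak in 148 and the 3' end in 20. Where the held start was the most upstream one listed, 51 of 146 genes had a peak at the outermost 5' end (34.9%), and where another start lay upstream, 97 of 162 did (59.9%). In 119 of the 146 the host had only 1 listed start, and in all of the 162 it had more. The part of this in the difference was not tested. The peak at the 5' end had the lower score of the pair in 102 of 148 cases and the higher one in 44, though the members were selected for a score of 15 or more and the 5' peaks were not, so this order is a description. The median scores were 18.78 for these members and 16.51 for the 5' peaks. Members without a peak at the 5' end had a median score of 21.18. A peak at a gene end can also belong to a neighbouring gene.

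**Figure D3:**
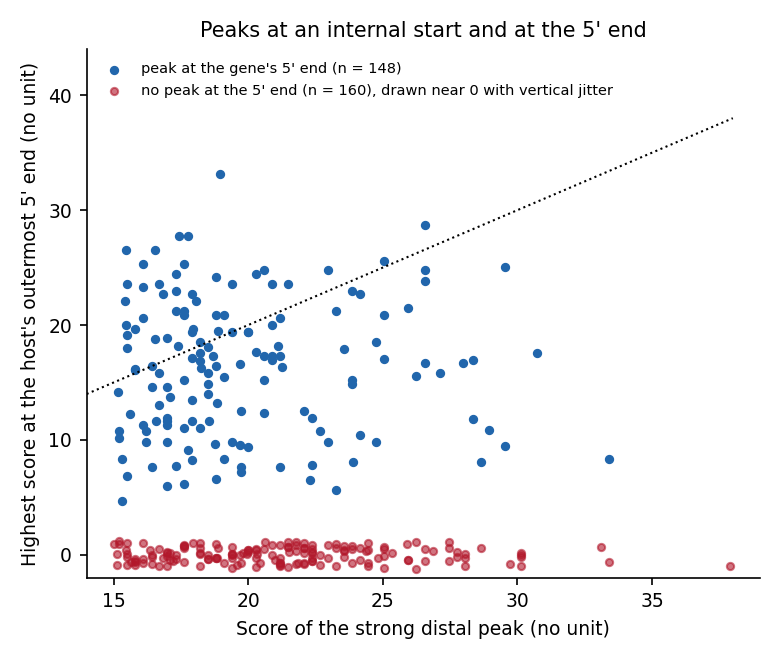
Score of each of the 308 strong distal peaks that hold a start of their host gene (horizontal) against the highest score of a peak within 1 kb of the gene's outermost 5' end (vertical); the dotted line marks equal scores. The 160 members whose host has no peak there are drawn near 0 and include Sgo2a at 37.88, and 102 of the other 148 lie under the line.

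Single genes show both patterns. Satb1, which encodes a chromatin organiser, had a member of 26.55 at a start 21106 bp inside the gene and a peak of 23.86 at its 5' end. Foxp1, a forkhead gene, had 16.7 at 494448 bp and 15.81 at the 5' end. Esrrg, a nuclear receptor gene, had 19.39 at 43248 bp and 9.84 at the 5' end. Zbtb38 had 33.41 inside and 8.34 at the end. In contrast, Mbnl1, Hdac7 (26.55), Hdac4 (15.51) and Dnmt3a had a member and no peak at the 5' end. At the imprinted gene Gnas, known for several promoters, the member had a score of 18.79 and a width of 4716 bp, held 3 listed starts and was the only strong distal peak of the gene, with no peak at the outermost ends.

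The starts under the members were rich in CpG. In the 300-base window from 250 bases before to 50 after a start, the ratio of observed to expected CpGs had a median of 0.732 (quartiles 0.576 and 0.903) over the 371 protein-coding starts in strong distal peaks. It was 0.807 over 6130 starts in boundary peaks of score 15 or more, 0.507 over 475 starts in weaker distal peaks and 0.229 over 10101 starts in no peak. A window was called CpG-rich with a ratio of at least 0.6 and a GC content of at least 50%. By this definition 69.3% (64.3 to 73.9%) of the starts in members were CpG-rich, against 79.6% (78.6 to 80.6%) in strong boundary peaks, 34.7% (30.5 to 39.2%) in weaker distal peaks, 16.7% (16.0 to 17.5%) in no peak and 45.1% of all protein-coding starts. The share in members was lower than that in strong boundary peaks. The 371 starts belong to 302 genes, and starts of 1 gene can lie a few bases apart with windows that overlap. Intervals over starts, here and for the motifs, are therefore too narrow.

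Within the same gene, the start under the peak mostly had more CpGs. A gene with a start in a member and another in no peak was found 101 times. The CpG ratio was higher at the start in the peak in 92 of these and lower in 9, with medians of 0.772 and 0.274, and the median number of CpGs was 26 against 5. Of the 133 starts of these 101 genes in no peak, 7 (5.26%, 2.14 to 10.5%) were CpG-rich. Of the 124 other starts of member genes that lay in another peak, 66 (53.2%, 44.1 to 62.2%) were CpG-rich, with a median ratio of 0.639. Where a gene had several starts of a kind, the highest ratio was taken. For lncRNA genes, 53.8% (46.0 to 61.5%) of the 169 starts in members were CpG-rich, against 14.7% of 618 in weaker distal peaks and 4.04% (3.66 to 4.46%) of 9547 in no peak.

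**Figure D4:**
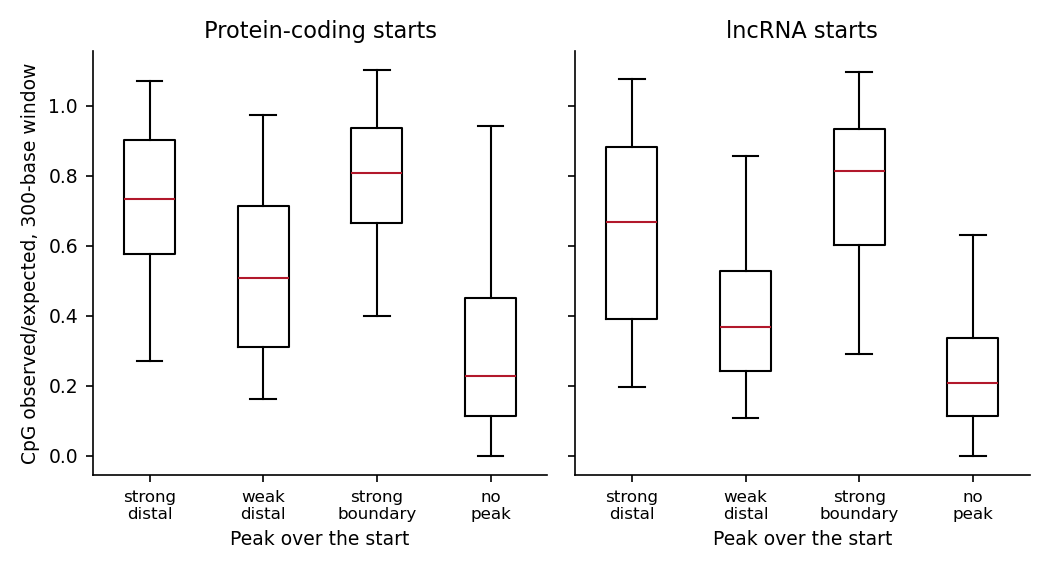
Ratio of observed to expected CpGs in the 300-base window at listed starts, by the kind of peak over the start, for protein-coding genes (left) and lncRNA genes (right); boxes show the quartiles with the median in red and whiskers the 5th and 95th percentiles. Starts in strong distal peaks have medians of 0.732 and 0.666, against 0.229 and 0.209 for starts in no peak.

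Promoter motifs were searched as exact letters on both strands of the same 300-base windows. The GC box GGGCGG, bound by Sp and Klf proteins, was in 67.7% (62.6 to 72.4%) of the protein-coding starts in members, against 71.2% in strong boundary peaks, 13.5% (8.22 to 20.5%) at the other starts of the same genes in no peak, 58.1% (48.9 to 66.9%) at their starts in another peak and 46.2% of all protein-coding starts. The TATA box TATAAA was in 4.85% (2.90 to 7.56%) of starts in members, in 15.0% of the other starts in no peak, in 4.84% of those in another peak and in 12.6% of all. The site CCGGAAG of the ETS family was in 9.16% (6.43 to 12.6%) of starts in members and in 21.3% (20.3 to 22.3%) of those in strong boundary peaks, against 11.6% of all. CCAAT, bound by NF-Y, was in 32.1% (27.4 to 37.1%) of starts in members and 38.2% of all. The E-box CACGTG was in 6.74% and 7.84%, and the cyclic AMP response element TGACGTCA in 2.70% and 2.23%. Starts in strong boundary peaks held the TATA box in 4.85%, as in members, and CCAAT in 38.3%. They held the E-box in 10.9% and the cyclic AMP response element in 3.61%. No motif contains another. The GC box, ETS, E-box and cyclic AMP motifs contain a CpG, and the part of CpG content in their shares was not tested. A match describes the letters only, not binding.

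Non-coding genes and pseudogenes lay near many members, some of which also held a host start. Of all 947, 225 (23.8%, 21.1 to 26.6%) had a midpoint within 1 kb of an end of an annotated gene that is not protein-coding, against 12.4% (11.7 to 13.2%) of weaker distal peaks and 13.4% of all peaks. Between genes the share was 39.6% (34.7 to 44.7%), against 15.1% (14.2 to 16.1%) of weaker distal peaks and 17.0% (16.3 to 17.8%) of all peaks there. Inside genes it was 12.97% (73 of 563, 10.3 to 16.03%), against 6.93% of weaker distal peaks. All peaks inside genes had 10.8%, which lies within the interval of the members, and strong boundary peaks there had 12.6%. The higher share than over all peaks was thus seen mainly between genes. The nearest such gene was an lncRNA gene in 166 members (17.5%, beside 11.1% of all peaks) and a pseudogene in 19 (2.01 and 0.715%). It was a transcribed pseudogene in 14 (1.48 and 0.274%) and a transfer RNA (tRNA) gene in 15 (1.58 and 0.487%). In 7 it was a microRNA gene (0.739 and 0.459%), and the interval of the members, 0.298 to 1.52%, includes the share over all peaks. Of the 371 assessed members between genes, 83 (22.4%) held a listed lncRNA start, against 8.00% (7.27 to 8.77%) of the weaker ones. Over all assessed peaks between genes the share was 9.44% (8.84 to 10.1%).

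Among lncRNA starts between genes, the highest scores were at Gm41301, which shared its peak with Gm34820 on the other strand (28.93; chromosome 15, 37134564 to 37137017), and at Gm33628 (28.64; chromosome 12, 108757041 to 108758873). The nearest protein-coding gene ends were 97031 bp away at Grhl2 and 34988 bp away at Yy1. Snhg20, a host gene of a small nucleolar RNA, had a peak of 25.65, and Dubr one of 21.06. The peak at Gm32810 (25.65) lay 551870 bp from the nearest protein-coding gene end, at Dsel, and the one at 1700019L22Rik (17.6) lay 1393496 bp from Tenm3, the farthest of all members. Inside genes, 16 members held a lncRNA start and no host start, led by Gm32755 in Angel1 (25.67) and Gm12843 in Rnf220 (23.56).

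Terc, the RNA template of telomerase, had a member of 27.14 with its midpoint 98 bp from an end of the gene (chromosome 3, 96413638 to 96415432). Near microRNA genes lay members of 26.85 (Mir148a), 24.16 (Mir193a) and 22.37 (Mir760), with the midpoint 867, 559 and 234 bp from an end of the hairpin, and a member of 15.51 lay 374 bp from Mirlet7i. A mature form of 3 of these, from RefSeq on GRCm38.p6, is printed because the members lie at the genes that encode them; capitals mark the seed (bases 2 to 8), and the 3 seeds differ.
mmu-miR-148a-3p, chr6:51269829-51269850, minus strand: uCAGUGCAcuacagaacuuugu
mmu-miR-193a-3p, chr11:79712009-79712030, plus strand: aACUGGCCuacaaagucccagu
mmu-let-7i-5p, chr10:122985698-122985719, minus strand: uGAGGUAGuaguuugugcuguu
The let-7 family is known for promoting neuronal differentiation. Of 1228 microRNA genes, 114 (9.28%) had any peak within 1 kb by the midpoint and 8 (0.651%) had a member.

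Transfer RNA genes had the highest share with a peak among the types of non-coding gene counted. Of 403 tRNA genes, 160 (39.7%) had the midpoint of any peak within 1 kb of an end and 31 (7.69%) that of a member, against 19.1 and 1.38% of 12637 lncRNA genes and 2.71 and 0% of 1330 small nucleolar RNA genes. tRNA genes are transcribed by RNA polymerase III and lie in clusters, so several can share 1 peak. The 15 members nearest to a tRNA gene all lay between protein-coding genes, with scores from 15.21 to 21.48 (median 18.84). The highest were at n-TEttc6 (21.48), n-TPcgg2 and n-TRccg2 (20.58 each), with midpoints 30, 131 and 111 bp from an end. The peak at n-TDgtc15 (19.39) was 4412 bp wide, the third widest of all members.

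The highest-scoring members near pseudogenes were at Gm19026 (27.74), with the midpoint 1 bp from an end of the gene, and the transcribed pseudogenes 4632415L05Rik (27.44) and 1810014B01Rik (25.65). Of 9853 pseudogenes not listed as transcribed, 165 (1.67%) had any peak within 1 kb and 22 (0.223%) a member, and of 476 transcribed ones 57 and 15 (3.15%). Whether reads could be placed uniquely at copies of other genes was not tested.

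Many members had no listed start. Of the 908 assessed members, 308 (33.9%) held a host start, beside 33.0% of all peaks outside chromosome 18, 99 (10.9%) held a lncRNA start, 87 (9.58%) held neither but lay within 1 kb of an end of a non-coding gene or pseudogene, and 414 (45.6%, 42.3 to 48.9%) had none of these. Among weaker distal peaks the last share was 82.3% (81.4 to 83.1%), and over all peaks outside chromosome 18 it was 57.2% (56.5 to 57.8%). The members thus had none of these less often than all peaks. For the lncRNA start and the nearby gene end, the shares over all peaks were 5.197 and 4.636%, beside 10.9 and 9.58% of the members. Taken over all peaks outside chromosome 18, 47.5% held a listed start of some gene, and 44.8% of the members did (41.6 to 48.1%). The working description of the set as possible unlisted promoters therefore went against the list of starts for those 407 members. Of the 414, 195 lay inside genes and 219 between them, and for 75 of the 195 the starts of the host were not assessed. Their median score was 17.9, against 19.735 for members at a host start, and 23 of them had a score of 25 or more.

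The highest of these after Kif27, Oxr1 and Acaca lay in Pxn, which encodes the focal adhesion protein paxillin (28.64), and between genes 26372 bp from Tead4 (28.64). The latter had its midpoint 1197 bp from an end of the pseudogene Gm4691, just over the limit of 1 kb. Further ones lay in Mpv17l (28.04), 32575 bp from Ddhd1 (28.04), in Sybu (27.44), in R3hcc1 (27.14) and, with a width of 3067 bp, 9520 bp from the immediate early gene Fos (27.14; chromosome 12, 85485261 to 85488327). Nrg1, which encodes the growth factor neuregulin, held one of 25.95 located 201231 bp from its nearer end and 1258 bp from the lncRNA gene Gm26578. Others were 99290 bp from the homeobox gene Irx5 (23.86) and in Wnt3a, which encodes a Wnt ligand (23.86). Starts of Pxn, Mpv17l, Sybu, R3hcc1 and Nrg1 were not assessed. The genes named here other than Kif27, Oxr1 and Acaca were chosen after their values were seen.

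Width differed between kinds of member at like score. Members had a median width of 2119 bp (quartiles 1842 and 2449 bp), distal peaks of score under 15 one of 1576 bp and boundary peaks of score 15 or more one of 2269 bp. The median width of boundary peaks rose from 2207 bp at scores of 15 to 17 to 2318 bp at 21 to 23, and was lower than that in the higher bins. Each member was therefore set against the median of boundary peaks in its own score bin of 2 units. The median difference was -146 bp (95% order-statistic interval -180 to -112 bp, which covers the spread of the members only). For members at a host start the difference was -17 bp and its interval spanned 0 (-92 to 55 bp), but this class favours wide peaks, which hold a start more easily. Members with the midpoint within 500 bp of a listed start, a class that does not use the width, were narrower than boundary peaks by a median difference of -92 bp (-137 to -44 bp). Members with no listed start and no gene end nearby were narrower than boundary peaks, with a median difference of -216.5 bp (-265 to -185 bp). This class favours narrow peaks, which hold a start less easily, and the part of this in the difference was not tested. For 75 members of the class, inside genes, the starts of the host were not assessed. Members at lncRNA starts differed by -160.5 bp (-217 to -91 bp). In the bin with the most members, from 15 to 17, the median was 2163 bp for 57 members at a host start, 1969.5 bp for 142 members with none of these and 2207 bp for 1177 boundary peaks. Members at a host start had the smaller median in 5 of the 7 bins from 15 to 29. Peaks of 3 kb or more were about as frequent among members (62, or 6.55%) as among strong boundary peaks (6.68%), and made up 1.92% of weaker distal peaks.

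**Figure D5:**
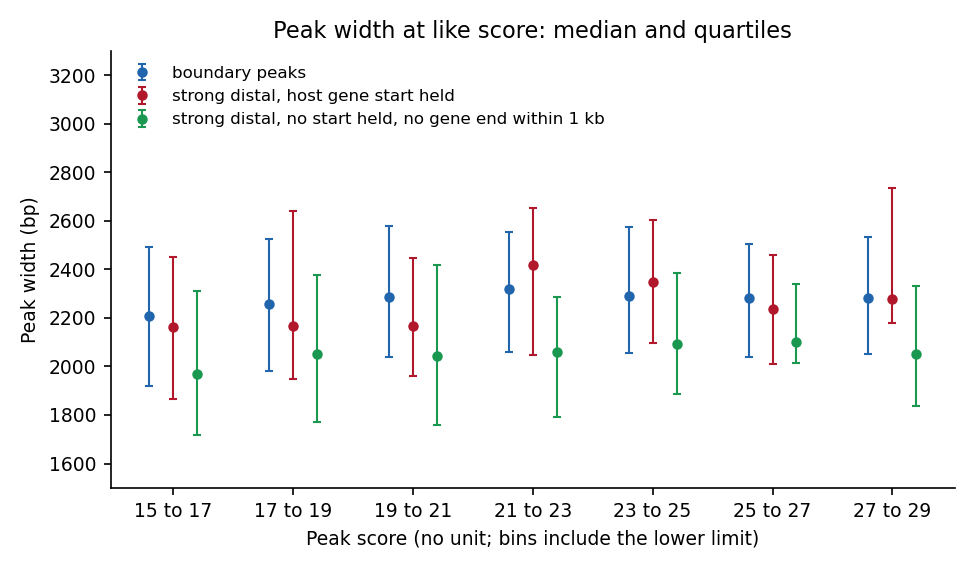
Peak width (bp, axis not from 0) by score bin of 2 units, as median and quartiles, for boundary peaks (blue), strong distal peaks at a host gene start (red) and strong distal peaks with no listed start and no gene end within 1 kb (green). The green medians, from 1969.5 to 2100 bp, lie under the blue ones in every bin from 15 to 29. The red medians lie under the blue ones in 5 of the 7 bins. The green class favours narrow peaks, which hold a start less easily, and the red class favours wide ones. Bins of 29 and over hold too few members to draw.

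The widest members were at Zfp217 (4851 bp), Gnas (4716 bp), n-TDgtc15 (4412 bp) and Msi1 (4080 bp), followed by a peak between genes 44149 bp from Psd2 on chromosome 18 (3945 bp). Msi1, which encodes an RNA-binding protein of neural stem cells, held 2 members, of 17.3 (the wide one) and 15.21. The narrowest were in Dcakd (988 bp, at a host start), Arhgap22 (1083 bp), Siglec15 (1156 bp) and Stag1 (1207 bp), with one of 1209 bp between genes near 1700029F12Rik.

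The host genes were mostly marked once. The 563 interior members lay in 538 genes, of which 513 held 1 member, 21 held 2 and 4 held 3, with 4 members inside more than 1 gene. Of 13918 protein-coding genes of at least 10 kb, 3.87% held a member. The genes with 3 were Gramd1b, a sterol transporter gene (20.92, 20.9 and 19.43), Dab2ip, a regulator of Ras (22.07, 20.88 and 15.11), Dlg2 (18.49 and 16.11 for each of the others) and Arhgap23, which encodes a GTPase-activating protein (16.41, 15.51 and 15.21). In Dab2ip 2 of the 3 held a start of the host and in Dlg2 1 did, and starts of Gramd1b and Arhgap23 were not assessed.

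Among genes known for several promoters, 11 of 50 held a member (22.0%, 11.5 to 36.0%), among them Dnmt3a, Gnas, Pde4d, Foxp1, Macf1, Dab1, Arhgef10, Arhgap26, Tpm1 and Esrrg, and in 5 of the 11 the member held a listed host start. These genes are long, with a median of 328.8 kb against 33.2 kb for all genes of at least 10 kb. Per Mb of gene more than 5 kb from its ends they held 0.498 members, against 0.642 over all such genes, and the part of gene length in the higher share per gene was not tested. The cytoskeletal crosslinker gene Macf1 had a member of 15.21, Arhgef10 one of 20.58, and the phosphodiesterase gene Pde4d 2, of 16.7 and 15.81. The tropomyosin gene Tpm1 had one of 22.67. The members in Macf1, Pde4d and Tpm1 held no listed start of the gene, and starts of Arhgef10 and Arhgap26 were not assessed.

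Chromatin modifiers held a member in 6 of 36 cases (16.7%, 6.37 to 32.8%), or 1.23 per Mb, against 3.87% and 0.642 per Mb over all genes of at least 10 kb. Their median length was 101.7 kb. Besides Dnmt3a, Hdac7 and Hdac4 these were Tet1 (20.28), which encodes a DNA demethylation enzyme, Kdm2b (17.9), which encodes a protein that binds CpG islands, and Hdac9 (20.28), none of them at a listed host start. Of 27 neural progenitor and neuronal regulators of at least 10 kb, 3 held one (11.1%, 2.35 to 29.2%), Satb1 and Msi1 among them, and the other 24 did not, Pax6, Notch1, Gli3 and Bcl11b among them.

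Zinc finger genes of the Zfp series held a member in 15 of 312 cases (4.81%, 2.72 to 7.81%), or 1.84 per Mb, and in 10 of them at a host start. The share per gene was near that of all genes of at least 10 kb, 3.87%, while the rate per Mb was higher than the 0.642 over all such genes. The Zfp genes are shorter, with a median of 20.7 kb against 33.2 kb, and the part of gene length in these values was not tested. Of the 10, 5 lie close together on chromosome 13, between 67080377 and 67422405: Zfp708 (15.51), Zfp759 (16.41), Zfp458 (16.11), Zfp595 (27.44) and Zfp459 (25.06). In each, the start lay from 6569 to 21884 bp inside the annotated span and no peak lay at either end of the gene. Zfp217 (26.85) and Zfp109 (24.46) had the same arrangement on chromosomes 2 and 7. Zfp786 differed, with a member of 18.96 and a peak of 33.11 at its 5' end. Clustered zinc finger genes resemble each other in sequence, and whether reads were placed uniquely there was not tested.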

How the data were processed

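ChIP sequencing was done on neural progenitor cells of embryonic brain at embryonic day 13 after formaldehyde crosslinking, with an H2AZ antibody and 1 input library. The authors deposited 1 peak list without a header; its score per peak is the authors' own value, whose meaning is not named in the file, and the other columns used, start and end, were deposited counted from 0 and are printed from 1. The submitters' processing notes list Bowtie2 2, FastQC, CASAVA 1.4 and, as build, mm9. Names of peaks include MACS, per the deposited file; version and settings: not given in the sources used here. Positions were read as GRCm38: of all peaks outside chromosome 18, 42.9% had the midpoint within 500 bp of a listed start of that build, and mm9 was not tried. Of 21592 peaks, 46 out of chromosome order by their numbers were left out. RefSeq tables of GRCm38.p6 gave 49595 genes on chromosomes, 21774 of them protein-coding, and 32851 starts; 17492 protein-coding genes had a start. The gene table gives outermost ends over all transcript models.

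Members, gene lists and the rule for named genes (the 20 highest scores, the 5 widest, narrowest and farthest, genes with 3 members and all members in the lists) were chosen with earlier results of these data known; some genes that the rule takes are left out of the text. The start, composition and motif analyses were added after the files were seen. Python 3.11.15, numpy 2.4.6, pandas 2.3.3, scipy 1.17.1 and matplotlib 3.10.9 were used, and the placement and width steps were tested on simulated data. No depth, enrichment over input or replicate error could be computed.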

Additional observations from a re-analysis of the deposited data

How the results depend on the processing

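Of 38 alternative settings, 22 left the value within its interval, or a count within 1.5 times, and 16 moved it. The width difference kept its sign; the other results carry none, and the groups set beside them were not recomputed. With a score limit of 12 or 20 in place of 15, the number of peaks was 1664 or 340, the share inside genes 51.7 or 69.1%, the share of interior peaks whose host has no end peak 44.2 or 58.3%, and the share holding a host start 50.8 (47.4 to 54.3) or 64.2% (57.5 to 70.4). Beside 57.4% over all interior peaks, the latter share is therefore lower with the limit of 12 and higher with 20. With a distance limit of 2 kb, 65.6% lay inside genes. The share near a non-coding gene end was 18.6, 27.9 and 35.3% with windows of 500 bp, 2 kb and 5 kb, and 10.5% without genes named only by a LOC or Gm number. The share of hosts without an end peak was 34.3% with a window of 5 kb, which can reach the member itself. The share at a host start, whose alternatives were chosen after seeing the data, was 52.5% by a midpoint within 500 bp and 67.7% over hosts with a listed start. The width difference stayed between -150 and -123 bp. With 1 library there were no replicates to leave out, and no paired analysis was possible because each group has 1 library. Unknown depth means that a gene without a listed peak cannot be called free of H2AZ.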
